A study of Mus musculus with 6 samples.

Results

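The complement system genes described here are 35 genes that encode the recognition molecules, proteases, convertase components, terminal components, regulators and receptors of complement, chosen by their symbols from a list. All 35 were found, each in a single row, among the 25403 genes of the count table of mouse liver. They were measured by poly(A) RNA-seq in 3 livers that the labels call WT and 3 they call *Themis*-KO. Every mouse had received the MASH diet, which supplied 40% of its energy as fat and 20% as fructose and held 2% cholesterol, for 3 months from an age of 10 to 12 weeks. MASH is metabolic dysfunction–associated steatohepatitis, the inflamed and fibrotic form of fatty liver disease. The WT mice are C57BL6/J by their labels, and the *Themis*-KO mice are whole-body knockouts by theirs, so T cells as well as liver cells carry the deletion. The labels give no strain for the *Themis*-KO mice, and livers of chow-fed mice are not part of this comparison. The comparison asks how loss of *Themis*, known as a gene of T cell development, alters the liver transcriptome under the diet.

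Complement is a cascade of plasma proteins that marks particles for uptake, attracts phagocytes and can perforate membranes. It is started by the C1 complex (classical pathway), by mannose-binding lectin and related collectins with their MASP proteases (lectin pathway) or by spontaneous turnover of C3 (alternative pathway), and these routes meet at the cleavage of C3 and then of C5. Hepatocytes secrete most of the plasma components, whereas the C1q chains, properdin and the anaphylatoxin receptors are products of macrophages and other myeloid cells. In RNA from whole tissue, fewer cells of a type and less RNA per cell cannot be told apart.

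The libraries held 20679642 to 25649767 counts on genes, of which the 35 genes took 1.24% to 1.51%. Levels are given as CPM, in which the counts of each library are scaled to a common size by TMM normalization. *Themis* stood at 8.07, 25.6 and 12.0 CPM in the WT livers, in replicate order, and at 8.63, 7.74 and 9.97 CPM in the *Themis*-KO livers (log2 fold change −0.79, SE 0.38, edgeR adjusted p = 0.199). WT replicate 1 fell among the *Themis*-KO livers, so the *Themis* counts did not separate the genotypes, and each direction below rests on the labels. WT replicates 1 and 2 also stood apart from the other 4 livers in having most reads of a mitochondrial sequence assigned to *Gm28438*, a nuclear copy of *mt-Nd3*, rather than to *mt-Nd3* itself (96.6% and 96.8% of their sum, against 2.20% to 3.26%). This split is called the mitochondrial type, and WT replicate 3 is the sole WT liver that shares it with the livers labelled *Themis*-KO.

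Of the 35 complement genes, *Cfd*, *C8g*, *C6* and *Mbl1* fell in livers labelled *Themis*-KO and none rose. The fall of *Cfd* was 17.2-fold in mean CPM, and the other 3 were 1.35-fold to 1.66-fold lower. All 35 genes passed the filter on low counts. With edgeR (quasi-likelihood F test, Benjamini-Hochberg correction, threshold 0.05), 4 of 35 (11.4%) were called in either direction, against 9.11% of the 14496 genes tested. All 4 were lower, where 4.14% of all genes tested were lower, and 0 of 35 were higher, where 4.97% were higher. At an unadjusted p under 0.05 from the same test, 12 (34.3%) were lower and 5 (14.3%) higher, against 13.9% and 16.8% of all genes. DESeq2, with its own adjustment, called 12 lower and 5 higher, against 1072 lower and 1207 higher of all 25403 genes fitted. The members it called included all 4 genes called by edgeR. Without *Themis*-KO replicate 1 edgeR called 0 of the 35 (12 lower and 5 higher at an unadjusted p under 0.05), and without *Themis*-KO replicate 3 it called 9 lower and 5 higher. Over all genes tested, the first of these fits called 12 lower and 8 higher of 14738, and the second 2039 lower and 2228 higher of 14806. The groups did not overlap in 16 genes that were lower and 3 that were higher, or 45.7% and 8.57%, against 16.9% and 17.7% of all genes tested.

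The medians of the 22 genes classed as hepatocyte-made and of the 6 classed as macrophage-made lay on opposite sides of 0. Of the hepatocyte-made genes, 18 (81.8%) had a negative log2 fold change and 3 (13.6%) were called lower, against 49.0% and 4.14% of all genes tested. Their median was −0.26 beside a median of 0.0095 over all genes tested. The macrophage-made genes, *C1qa*, *C1qb*, *C1qc*, *Cfp*, *C3ar1* and *C5ar1*, all had a positive log2 fold change, with a median of 0.69, and 0 were called by edgeR, although 5 (83.3%, against 16.8% of all genes tested) had an unadjusted p under 0.05 and were higher, and DESeq2 called those 5. *Fcna*, which macrophages also express but which was not placed in this class, went the other way, with a log2 fold change of −0.54 and groups that did not overlap. The 7 genes placed in neither class (*Cfd*, *Fcna*, *Colec10*, *C7*, *Cd55*, *Cd59a* and *Cr1l*) had a median of −0.089. Scaling by total counts alone shifted the median of all genes tested to 0.15 and raised the share of higher genes among all called genes from 54.6% to 78.9%. Under that scaling the median of the hepatocyte-made genes was −0.12 and that of the macrophage-made genes 0.82.

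The summed CPM of the 22 hepatocyte-made genes in replicate order was 15658, 13158 and 12483 in the WT livers and 13184, 13104 and 11622 in the *Themis*-KO livers. These sums overlapped between the groups. Of 12 hepatocyte markers outside complement, 4 were called lower, *Serpina1c*, *Ass1*, *Tdo2* and *Cyp2e1* (33.3%, against 4.14% of all genes tested). *Alb* and *Apoa1*, also in the list, were not called (edgeR adjusted p = 0.185 and 0.107). In this list 11 were negative, with a median log2 fold change of −0.35. The summed CPM of the list was 69773 to 74149 in WT and 53609 to 59358 in *Themis*-KO livers, and none was at 0. Most of this sum was *Alb*, at 39776 to 43024 CPM in WT and 33597 to 37327 CPM in *Themis*-KO livers. The part of these markers in the lower values of hepatocyte-made complement genes was not tested.

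**Figure D1:**
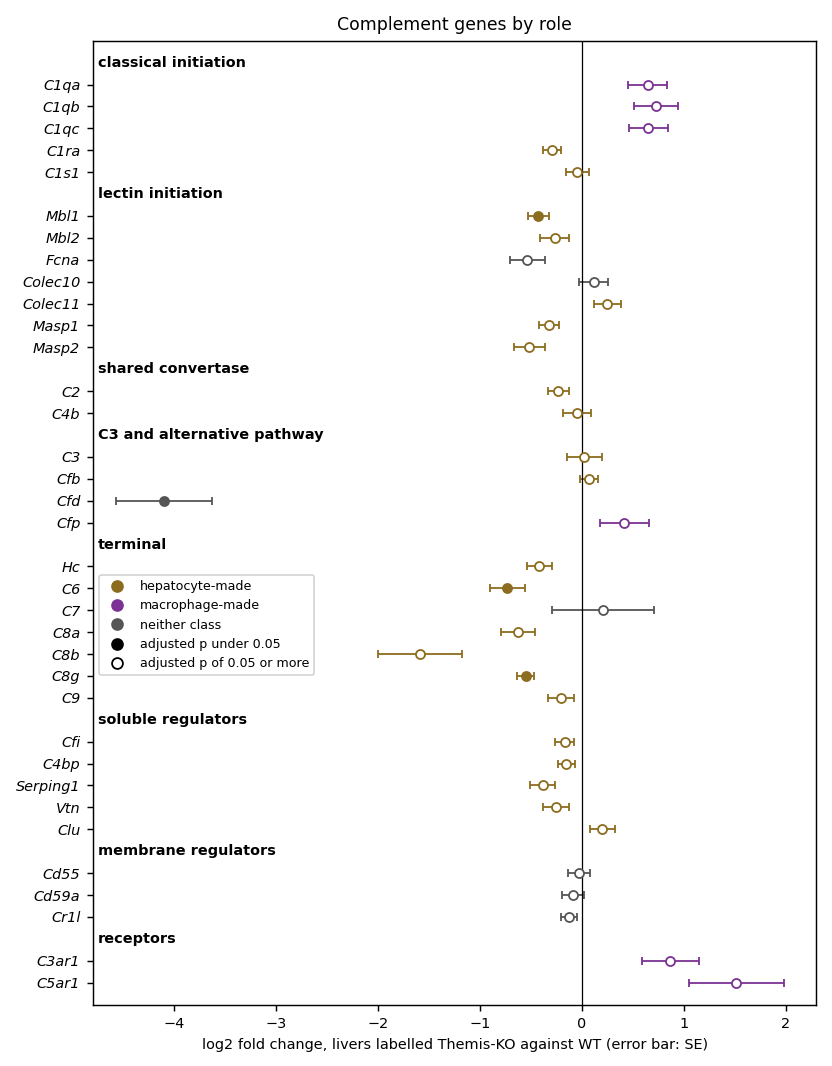
Log2 fold change (x axis, livers labelled *Themis*-KO against WT, bars show the SE, 3 livers per group) of the 35 complement genes, grouped by role and coloured by assigned class. Filled points mark an adjusted p under 0.05, which 4 genes have, and *Cfd* lies far to the left of all others at −4.10.

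*Cfd* encodes factor D (adipsin), the serine protease that cleaves factor B bound to C3b and so completes the C3 convertase of the alternative pathway. It is best known as a product of adipocytes. It stood at 129, 72.1 and 34.4 CPM in the WT livers, in replicate order, and at 4.97, 3.96 and 4.77 CPM in the *Themis*-KO livers, from 872 to 2814 counts and from 92 to 117 counts per library. The groups were far apart, although the WT livers differed 3.75-fold among themselves and the *Themis*-KO livers only 1.26-fold. The log2 fold change was −4.10 (SE 0.47, edgeR adjusted p = 0.00936). WT replicate 3, the lowest of its group, was still 7.54-fold above the mean of the *Themis*-KO livers.

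The call for *Cfd* was lost without *Themis*-KO replicate 1 (adjusted p = 0.0506, log2 fold change −4.17) and with the mitochondrial type as a covariate, where WT replicate 3 alone carries the comparison (adjusted p = 0.0735, log2 fold change −2.91). It held in a fit blocked by replicate number (adjusted p = 0.0233) and without each of the other 5 livers. Of 8 adipocyte genes, a list drawn up after the values of *Cfd* were seen, the defining markers *Adipoq* and *Plin1* were at or near 0, with at most 0.0789 CPM in any liver, and *Lep* and *Retn* are not in the rows analysed. *Cidec*, *Fabp4* and *Aqp7*, which fatty hepatocytes and macrophages also express, were called higher and *Lipe* lower in the livers labelled *Themis*-KO. These are 75% and 25% of the 4 that could be tested, against 4.97% and 4.14% of all genes tested. The summed CPM of the list was 191 to 215 in WT and 271 to 306 in *Themis*-KO livers. Most of this sum was *Cidec*, at 120.5 to 150.6 CPM in WT and 198.5 to 222.4 CPM in *Themis*-KO livers.

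*Cfd* codes for protein on chromosome 10 of GRCm38, on the forward strand between 79890853 and 79892655. The gene lies 51 Mb from *Themis* on the same chromosome. Its proximal promoter is shown because it heads the gene with the largest change. It is the 250 bases before the RefSeq start site (chr10:79890603-79890852, forward strand, GRCm38.p6), and it held none of the motifs searched, so no letters are in capitals.
Cfd: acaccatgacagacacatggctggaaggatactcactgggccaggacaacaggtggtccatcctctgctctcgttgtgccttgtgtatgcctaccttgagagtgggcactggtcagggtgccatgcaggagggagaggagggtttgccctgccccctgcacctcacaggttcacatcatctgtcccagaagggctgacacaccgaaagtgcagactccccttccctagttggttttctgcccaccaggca

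The other genes of C3 and the alternative pathway were not called. *C3*, the central component of the cascade, stood at 3949, 3067 and 2786 CPM in the WT livers, in replicate order, and at 3471, 3785 and 2700 CPM in the *Themis*-KO livers. The groups overlapped fully, with a log2 fold change of 0.023 (SE 0.17, edgeR adjusted p = 0.939), and its sign turned when single livers were left out (from −0.09 to 0.18). *Cfb*, which encodes factor B, the substrate of factor D, had 863 to 989 CPM in WT and 925 to 991 CPM in *Themis*-KO livers. Its log2 fold change was 0.068 (SE 0.093, edgeR adjusted p = 0.647). The ratio of *Cfb* to *Cfd* CPM was 7.66, 12.5 and 25.1 in the WT livers and 195, 251 and 194 in the *Themis*-KO livers in replicate order, with the change on the side of *Cfd*. *Cfp*, which encodes properdin, the stabilizer of the alternative convertase, belongs to the macrophage-made genes below.

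The terminal components, which assemble on the cleaved form of C5 into the membrane attack complex, were the role with most calls. Of 7 genes, *C6* and *C8g* fell, 6 were negative, and in 5 (*Hc*, *C6*, *C8a*, *C8b* and *C8g*) every *Themis*-KO liver lay below every WT liver. These are 28.6% called lower and 71.4% lower without overlap, against 4.14% and 16.9% of all genes tested. The median log2 fold change was −0.55. *C8g*, which encodes the gamma chain of C8, a lipocalin, stood at 183, 176 and 173 CPM in the WT livers, in replicate order, and at 114, 123 and 126 CPM in the *Themis*-KO livers. Both groups were tight, and the log2 fold change was −0.55 (SE 0.0805, edgeR adjusted p = 0.0154). *C6*, the component that binds cleaved C5 first, stood at 287, 193 and 216 CPM in the WT livers, in replicate order, and at 155, 148 and 116 CPM in the *Themis*-KO livers. WT replicate 1 was the highest, and the gap between the groups was smaller than the spread within WT (log2 fold change −0.73, SE 0.17, edgeR adjusted p = 0.0418).

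The calls of *C8g* and *C6* depended on which livers were used. A block for replicate number gave an adjusted p of 0.0887 for *C8g* and 0.0868 for *C6*, and with the mitochondrial type as a covariate 0.303 and 0.459. *C8g* was called only without WT replicate 3 or without *Themis*-KO replicate 3 when single livers were left out, with an adjusted p of 0.0802 and 0.0599 without WT replicates 1 and 2 and of 0.0783 and 0.0834 without *Themis*-KO replicates 1 and 2. *C6* was called only without *Themis*-KO replicate 3, with an adjusted p of 0.136, 0.0861 and 0.0673 without WT replicates 1, 2 and 3 and of 0.112 and 0.126 without *Themis*-KO replicates 1 and 2. Over these fits the log2 fold change stayed between −0.60 and −0.52 for *C8g* and between −0.85 and −0.55 for *C6*.

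*C8b*, the beta chain of C8, had the largest difference of the terminal genes in size, with a log2 fold change of −1.59 (SE 0.41, edgeR adjusted p = 0.0526). It stood at 116, 44.7 and 79.7 CPM in the WT livers, in replicate order, and at 34.8, 31.4 and 13.6 CPM in the *Themis*-KO livers, a 2.60-fold spread within WT and a 2.56-fold spread within *Themis*-KO. *C8a*, the alpha chain, stood at 838, 577 and 567 CPM in the WT livers, in replicate order, and at 469, 436 and 375 CPM in the *Themis*-KO livers (log2 fold change −0.63, SE 0.17, edgeR adjusted p = 0.0572). Both missed the threshold, and DESeq2 called both, with an adjusted p of 0.0272 for *C8b* and 0.00376 for *C8a*. The chains of C8 are equal in number in the protein, but their mRNA levels were not: per kilobase of exon, the mean CPM in WT livers was 182 for *C8a*, 119 for *C8g* and 31.5 for *C8b*, and in *Themis*-KO livers 117, 81.1 and 10.5. *C8b* was thus the scarcest of these mRNAs under either label.

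*C8b* and *C8a* are neighbours on chromosome 4, with *C8b* at 104766317 to 104804548 (forward) and *C8a* at 104815679 to 104876398 (reverse) and their 3′ ends 11.1 kb apart. Their promoters are shown because the pair was lower together in every *Themis*-KO liver. Each run is the 250 bases before the RefSeq start site in GRCm38.p6, at chr4:104766067-104766316 (forward) and chr4:104876399-104876648 (reverse). Capitals mark the letters GTTAAT or its reverse complement, a motif of hepatocyte promoters, in both promoters and, farther from the start site of *C8a*, a STAT-type TTCNNNGAA.
C8b: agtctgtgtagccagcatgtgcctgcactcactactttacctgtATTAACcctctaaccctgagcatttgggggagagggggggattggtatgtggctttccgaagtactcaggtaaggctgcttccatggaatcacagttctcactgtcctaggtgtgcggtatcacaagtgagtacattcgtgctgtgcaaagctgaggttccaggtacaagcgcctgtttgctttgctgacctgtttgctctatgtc
C8a: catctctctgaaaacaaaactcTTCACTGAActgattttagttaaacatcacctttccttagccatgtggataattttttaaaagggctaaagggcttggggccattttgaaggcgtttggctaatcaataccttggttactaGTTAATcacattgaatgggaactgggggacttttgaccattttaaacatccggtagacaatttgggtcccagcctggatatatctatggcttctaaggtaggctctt

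Of the remaining terminal genes, *Hc*, which encodes C5, stood at 843, 639 and 710 CPM in WT and at 568, 567 and 503 CPM in *Themis*-KO livers, in replicate order. The groups did not overlap, and the log2 fold change was −0.42 (SE 0.12, edgeR adjusted p = 0.0674). *C9*, whose product forms the ring of the pore, had 386 to 491 CPM in WT and 340 to 410 CPM in *Themis*-KO livers, which overlapped (log2 fold change −0.20, SE 0.13, adjusted p = 0.309). *C7* was the lowest of all 35 genes per kilobase, with only 8 to 21 counts per library, and no difference was detectable at this depth (log2 fold change 0.21, SE 0.50). *C6* and *C7* are 174 kb apart on chromosome 15, and their mean levels in WT were 65.3 and 0.207 CPM per kb of exon.

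**Figure D2:**
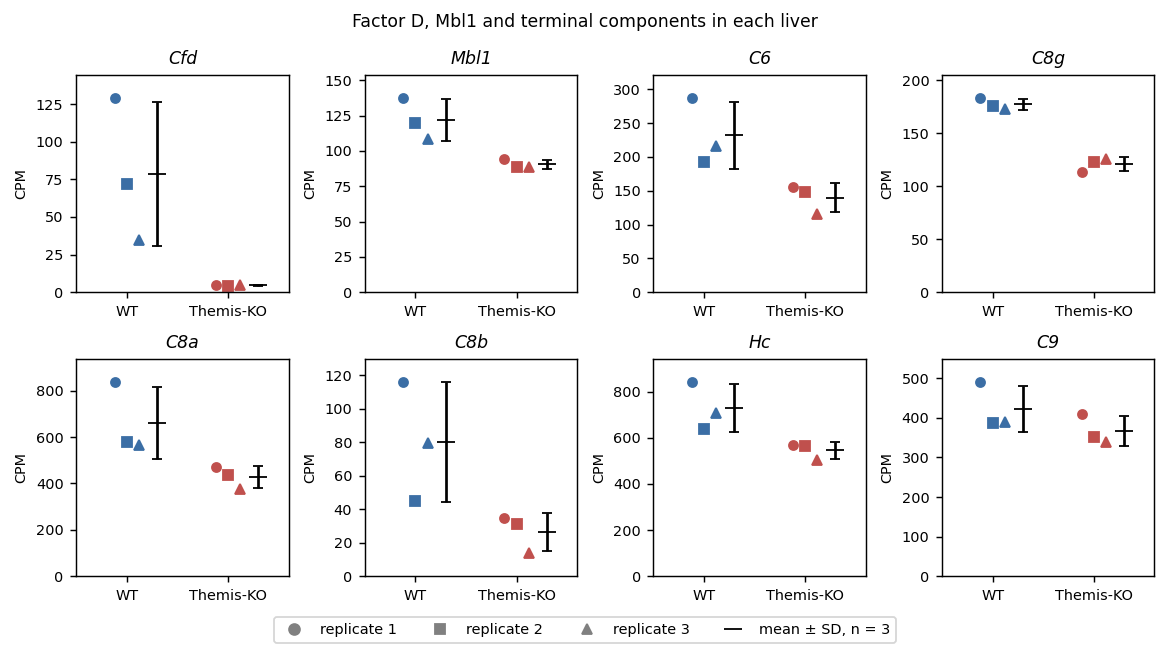
TMM-normalized CPM (y axis, from 0) of *Cfd*, *Mbl1*, *C6*, *C8g*, *C8a*, *C8b*, *Hc* and *C9* in each liver, with symbols for the replicate number and bars for the mean ± SD of 3 livers. In every panel but that of *C9* the livers labelled *Themis*-KO lie below those labelled WT, and *C8g* is the tightest, with 173 to 183 CPM against 114 to 126.

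In the lectin pathway, 1 of 7 genes (14.3%) was called lower, against 4.14% of all genes tested. *Mbl1*, which encodes mannose-binding lectin A, stood at 138, 120 and 108 CPM in the WT livers, in replicate order, and at 94.1, 88.5 and 88.9 CPM in the *Themis*-KO livers. The highest *Themis*-KO liver was below the lowest WT liver, and the log2 fold change was −0.43 (SE 0.10, edgeR adjusted p = 0.0426). This call was kept without WT replicate 3 and without *Themis*-KO replicate 3. It was lost without WT replicates 1 and 2 (adjusted p = 0.143 and 0.118) and without *Themis*-KO replicates 1 and 2 (adjusted p = 0.125 and 0.146). It was also lost with the replicate block (adjusted p = 0.113), with the mitochondrial type as a covariate (adjusted p = 0.524) and under scaling by total counts alone (adjusted p = 0.0745). The same scaling ended the call of *C6* (adjusted p = 0.0609). *Mbl1* occupies bases 41151458 to 41159601 of chromosome 14 (forward strand).

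*Mbl2*, the other mannose-binding lectin, had a higher level per kilobase of exon (288 CPM per kb against 77.7 for *Mbl1* in WT). It stood at 262, 309 and 372 CPM in WT and 237, 256 and 291 CPM in *Themis*-KO livers in replicate order, with overlap between the groups (log2 fold change −0.27, SE 0.14, adjusted p = 0.241). The MASP proteases, which act once a lectin has bound, had mRNA levels below every WT liver in every *Themis*-KO liver. *Masp2* had a log2 fold change of −0.52 (SE 0.15, edgeR adjusted p = 0.0675) and *Masp1* of −0.33 (SE 0.097, adjusted p = 0.0718). Neither passed the threshold, and DESeq2 called both. *Fcna*, a ficolin gene of macrophages, had 24.2 to 35.9 CPM in WT and 16.8 to 23.1 CPM in *Themis*-KO livers (log2 fold change −0.54, SE 0.17, adjusted p = 0.085). It was lower while the macrophage-made genes named above were higher. The collectin genes *Colec10* and *Colec11* had log2 fold changes of 0.11 and 0.25, with adjusted p of 0.605 and 0.239, and overlapping groups.

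The classical pathway is started by C1, in which C1q carries the proteases C1r and C1s. The 3 chains of C1q come from *C1qa*, *C1qc* and *C1qb*, which lie in a row on the reverse strand of chromosome 4 between 136880129 and 136898803, with gaps of 2.85 and 3.62 kb. *C1qb* stood at 47.3, 45.6 and 80.1 CPM in the WT livers, in replicate order, and at 90.2, 107 and 89.0 CPM in the *Themis*-KO livers (log2 fold change 0.73, SE 0.21, edgeR adjusted p = 0.070). *C1qa* ranged from 54.4 to 86.5 CPM in WT and from 94.1 to 117 CPM in *Themis*-KO livers (log2 fold change 0.64, SE 0.19, adjusted p = 0.0692). *C1qc* ranged from 46.2 to 72.8 and from 77.7 to 104 CPM (log2 fold change 0.65, SE 0.19, adjusted p = 0.0681). In each of these genes WT replicate 3 was the highest WT liver and lay just below the *Themis*-KO range, so that the mean of the *Themis*-KO livers was 1.18-fold to 1.21-fold that of WT replicate 3. Without WT replicate 3, or without *Themis*-KO replicate 3, all 3 genes were called higher, and with the mitochondrial type as a covariate their adjusted p was 0.566 to 0.603.

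The C1q chains moved together within each liver. The ratio of *C1qa* to *C1qb* CPM was 1.04 to 1.19 and that of *C1qc* to *C1qb* 0.862 to 1.08 over the 6 livers. The promoter of *C1qb* is shown because it heads the chain with the largest difference. The run is the 250 bases before the RefSeq start site, on the reverse strand of GRCm38.p6 at chr4:136886201-136886450. Capitals mark GAGGAA, the core of PU.1 and other ETS sites, which was also found upstream of *C1qc*. *C1qa* had no entry in the promoter table.
C1qb: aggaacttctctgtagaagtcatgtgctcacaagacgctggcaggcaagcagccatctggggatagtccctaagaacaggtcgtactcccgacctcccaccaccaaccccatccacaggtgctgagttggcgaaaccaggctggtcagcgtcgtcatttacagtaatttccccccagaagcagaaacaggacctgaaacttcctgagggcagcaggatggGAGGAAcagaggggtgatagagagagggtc

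C1q was read beside other macrophage genes. Of 12 macrophage markers, *Cd68*, *Ctss* and *Mpeg1* were called higher (25%, against 4.97% of all genes tested). In this list 8 were positive and 4 negative, with a median log2 fold change of 0.51. Their summed CPM in replicate order was 612, 615 and 883 in the WT livers and 878, 1078 and 907 in the *Themis*-KO livers, and none was at 0. Kupffer cell markers among them differed in sign, and none was called by edgeR. The log2 fold change was −0.96 for *Cd163* (adjusted p = 0.0562), −1.29 for *Marco* (0.248) and −0.63 for *Timd4* (0.239). It was 0.14 for *Clec4f* (adjusted p = 0.568) and 0.70 for *Cd5l* (adjusted p = 0.0649). Relative to *Csf1r*, the receptor of the macrophage growth factor M-CSF, the summed C1q CPM was 3.64, 3.32 and 3.39 in the WT livers and 3.46, 3.60 and 3.54 in the *Themis*-KO livers, in replicate order. This ratio overlapped between the groups, and its means were 3.45 ± 0.17 and 3.54 ± 0.070 (SD, n = 3 each). As a share of the 12 markers summed, C1q was 24.3% to 27.1% in WT and 29.5% to 30.5% in *Themis*-KO livers, without overlap. The part of macrophage content in the C1q values was not tested.

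The proteases of C1 are hepatocyte products and did not follow C1q. *C1ra*, which encodes C1r, had 268 to 308 CPM in WT and 228 to 249 CPM in *Themis*-KO livers, without overlap (log2 fold change −0.29, SE 0.090, edgeR adjusted p = 0.0764). *C1s1*, its neighbour 6.90 kb away on chromosome 6, had 699 to 789 CPM in WT and 645 to 803 CPM in *Themis*-KO livers (log2 fold change −0.047, SE 0.11, adjusted p = 0.799), and its sign was positive under scaling by total counts alone.

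*Cfp*, the properdin gene on the X chromosome, stood at 17.5, 19.9 and 32.7 CPM in WT and at 26.4, 38.1 and 29.2 CPM in *Themis*-KO livers, in replicate order. It overlapped between the groups (log2 fold change 0.42, SE 0.24, edgeR adjusted p = 0.278), and the sign turned with the mitochondrial type as a covariate (−0.066). Relative to *Csf1r* it was lower, at 42.8% to 46.3% in WT and 34.9% to 41.8% in *Themis*-KO livers.

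The anaphylatoxin receptors, which carry the signals of C3a and C5a into myeloid cells, had the largest positive differences of the 35 genes, with a wide spread within each label. *C5ar1* stood at 2.39, 1.44 and 3.43 CPM in the WT livers, in replicate order, and at 8.29, 9.68 and 2.93 CPM in the *Themis*-KO livers, from 30 to 225 counts per library. *Themis*-KO replicates 1 and 2 were high and replicate 3 lay within the WT range (log2 fold change 1.51, SE 0.46, edgeR adjusted p = 0.0764). *C3ar1* showed the same order, with 4.91, 4.13 and 6.47 CPM in WT and 9.56, 12.6 and 6.14 CPM in *Themis*-KO livers (log2 fold change 0.87, SE 0.28, adjusted p = 0.0862). Without *Themis*-KO replicate 3 both were called higher, with adjusted p of 0.00554 and 0.0109. As a percentage of *Csf1r* CPM, *C5ar1* was 5.82, 3.20 and 4.86 in the WT livers and 10.96, 10.6 and 3.88 in the *Themis*-KO livers, so its excess in *Themis*-KO replicates 1 and 2 was larger than that of *Csf1r*.

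C5aR1 is also abundant on neutrophils. The neutrophil markers *S100a8*, *S100a9* and *Cxcr2*, 3 of 6 with enough counts to be tested, had log2 fold changes of 1.13 to 1.21. They were not called by edgeR, although all 3 were higher at an unadjusted p under 0.05 (100%, against 16.8% of all genes tested). The summed CPM of the neutrophil list was 2.94, 2.16 and 4.38 in the WT livers and 10.7, 7.61 and 3.26 in the *Themis*-KO livers, so *Themis*-KO replicate 3 again lay within the WT range. *Mpo* and *Retnlg* had at most 0.129 and 0.344 CPM in any liver, and *Ly6g* is not in the rows analysed. The part of neutrophils in the values of *C5ar1* was not tested.

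**Figure D3:**
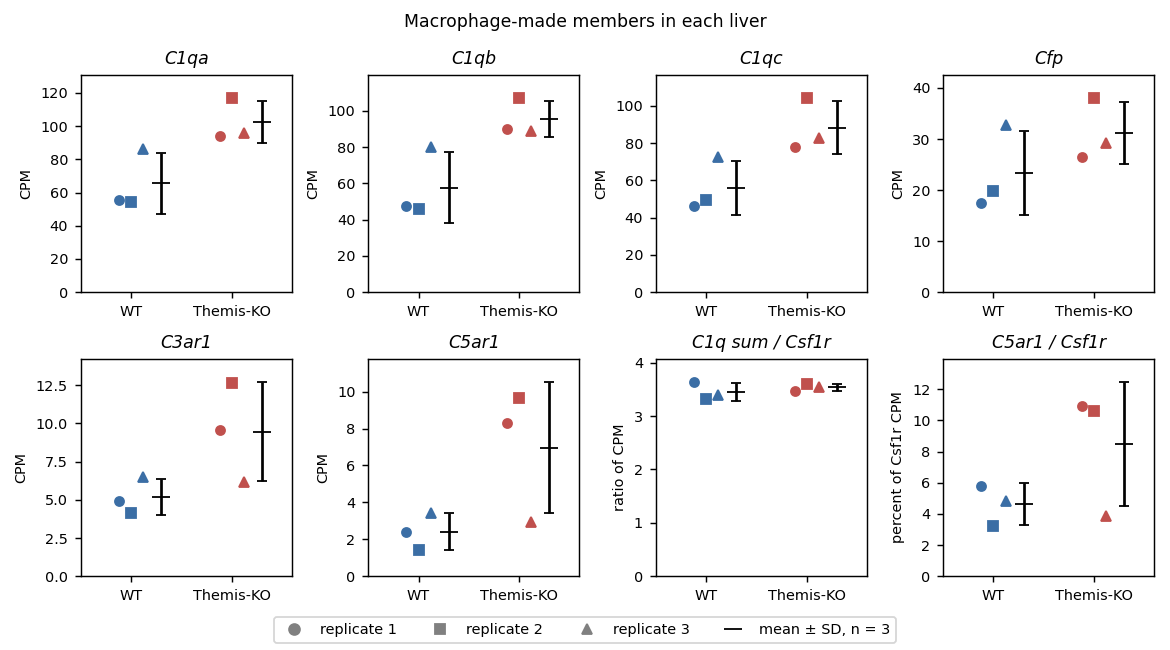
TMM-normalized CPM (y axis, from 0) of the 6 macrophage-made complement genes in each liver, and the C1q sum and *C5ar1* relative to *Csf1r*, with bars for the mean ± SD of 3 livers. The C1q panels place WT replicate 3 just below the *Themis*-KO livers. The ratio of C1q to *Csf1r* overlaps between the groups, at 3.32 to 3.64, and *Themis*-KO replicate 3 lies among the WT livers for *C5ar1*.

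The convertase components shared by the classical and lectin pathways were not called. *C4b* had 1128 to 1442 CPM in WT and 1052 to 1340 CPM in *Themis*-KO livers (log2 fold change −0.05, SE 0.14, edgeR adjusted p = 0.825), and *C2* had 50.9 to 65.6 and 48.4 to 50.7 CPM (log2 fold change −0.23, SE 0.10, adjusted p = 0.175). *C2* and *Cfb* are 85 bases apart on chromosome 17 and encode the equivalent proteases of the classical and alternative convertases. *C4b* is nearly identical in sequence to *C4a*, 65.2 kb away, so the split of reads between them is uncertain. The sign for *C4b* was positive under scaling by total counts alone.

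Among the soluble regulators, none of 5 was called by edgeR, 1 had an unadjusted p under 0.05 and DESeq2 called that 1. It was *Serping1*, the gene of the C1 inhibitor, with 664, 541 and 494 CPM in WT and 452, 431 and 417 CPM in *Themis*-KO livers in replicate order (log2 fold change −0.39, SE 0.12, edgeR adjusted p = 0.0828). *Cfi* and *C4bp*, whose products degrade C3b and C4b together, lay below WT in every *Themis*-KO liver by small margins, with log2 fold changes of −0.17 and −0.15. *Vtn* (vitronectin) and *Clu* (clusterin), which keep the terminal complex from inserting into membranes, had log2 fold changes of −0.25 (adjusted p = 0.219) and 0.20 (adjusted p = 0.292), and both overlapped. *Clu* was the sole soluble regulator with a positive value.

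The membrane regulators, which protect the liver's own cells, were not called, with 0 at an unadjusted p under 0.05 and 0 called by DESeq2. *Cd55* (decay-accelerating factor), *Cd59a* (the inhibitor of the membrane pore) and *Cr1l* (Crry, the C3b regulator of rodents) had log2 fold changes of −0.026, −0.089 and −0.13, with edgeR adjusted p of 0.886, 0.591 and 0.318. All 3 signs were positive under scaling by total counts alone. *Cd59a* had the highest level of them per kilobase, and its CPM was 76.6 to 93.9 in WT and 72.6 to 84.9 in *Themis*-KO livers.

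Per kilobase of exon, the order of the most abundant complement mRNAs was nearly the same under both labels. *C3*, *Vtn*, *Clu*, *Cfb* and *Mbl2* held the first 5 places in both, with mean levels of 635, 613, 372, 325 and 288 CPM per kb in WT and of 645, 514, 428, 341 and 240 CPM per kb in *Themis*-KO livers. *C3* and *Vtn* did not differ beyond their spread between livers. *Cfd* stood at place 15 in WT, at 85.2 CPM per kb, and at place 29 in *Themis*-KO livers, at 4.95. *C1qa* and *C1qb* stood at places 20 and 21 in WT and at 12 and 13 in *Themis*-KO livers, and *C8b* went from place 23 to 28. These places use the union of all annotated exons as length and are a description.

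Of 26 further complement genes, 24 were in the rows analysed and 19 could be tested, 4 of which fell and 2 rose (21.1% and 10.5%, against 4.14% and 4.97% of all genes tested). *C4a*, the sex-limited homologue of *C4b*, stood at 190, 145 and 110 CPM in WT and at 47.3, 50.4 and 48.2 CPM in *Themis*-KO livers, in replicate order (log2 fold change −1.61, SE 0.18, edgeR adjusted p = 0.00936), a value that is uncertain for the reads it shares with *C4b*. *Susd4*, a membrane inhibitor of complement, had 18.5 to 20.5 CPM in WT and 6.75 to 9.97 CPM in *Themis*-KO livers (log2 fold change −1.21, SE 0.15, adjusted p = 0.0116). *Itgax* and *Itgb2*, which encode the chains of complement receptor 4 on myeloid cells, rose, with log2 fold changes of 1.34 and 0.93 (adjusted p = 0.0401 and 0.0416). *Itgam*, the partner of *Itgb2* in complement receptor 3, had 13.3, 13.2 and 4.86 CPM in *Themis*-KO replicates 1, 2 and 3 against 2.83 to 6.04 in WT (log2 fold change 1.29, adjusted p = 0.0847). With the replicate block 2 of these genes were called lower and 0 higher, against 45 lower and 17 higher of all 14496 genes tested. Without *Themis*-KO replicate 1, 0 were called in either direction, against 12 lower and 8 higher of all 14738 genes tested. Without *Themis*-KO replicate 3, 5 were called lower and 5 higher, against 2039 and 2228 of all 14806 genes tested.

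Of 16 genes for cytokines and transcription factors known to drive complement genes in hepatocytes, 14 could be tested. *Cebpd*, an acute-phase transcription factor, rose (18.1 to 23.4 CPM in WT, 26.4 to 30.9 CPM in *Themis*-KO livers, log2 fold change 0.53, SE 0.12, edgeR adjusted p = 0.0407). *Stat3* had 171, 78.3 and 123 CPM in WT and 205, 197 and 77.6 CPM in *Themis*-KO livers, a spread within each label wider than the difference between the means. *Il6* and *Ifng* were too low to be tested.

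Promoters of 26 of the 35 genes were in the RefSeq table (GRCm38.p6), and the 250 bases before each start were searched on both strands. The motif GTTAAT, known from hepatocyte promoters, was found in 8 of 26 (30.8%), those of *C1ra*, *C4bp*, *C7*, *C8a*, *C8b*, *Cfp*, *Hc* and *Vtn*, against 6.43% of all 32851 promoters. The STAT-type TTCNNNGAA was found in 4 (15.4%, against 7.02%), the C/EBP-type TTGCNNAA in 3 (11.5%, against 9.56%), TATAAA in 4 (15.4%, against 12.4%), the PU.1 or ETS core GAGGAA in 4 (15.4%, against 23.3%) and the HNF4-type CAAAGTCCA in 0 (against 0.384%). The marked motifs do not overlap in the promoters printed. The promoters of *Cfd*, *C8g*, *C6* and *Mbl1*, the genes called lower, held none of these letters. A match is a description of the sequence, and these motifs were chosen with the expression values known.

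**Figure D4:**
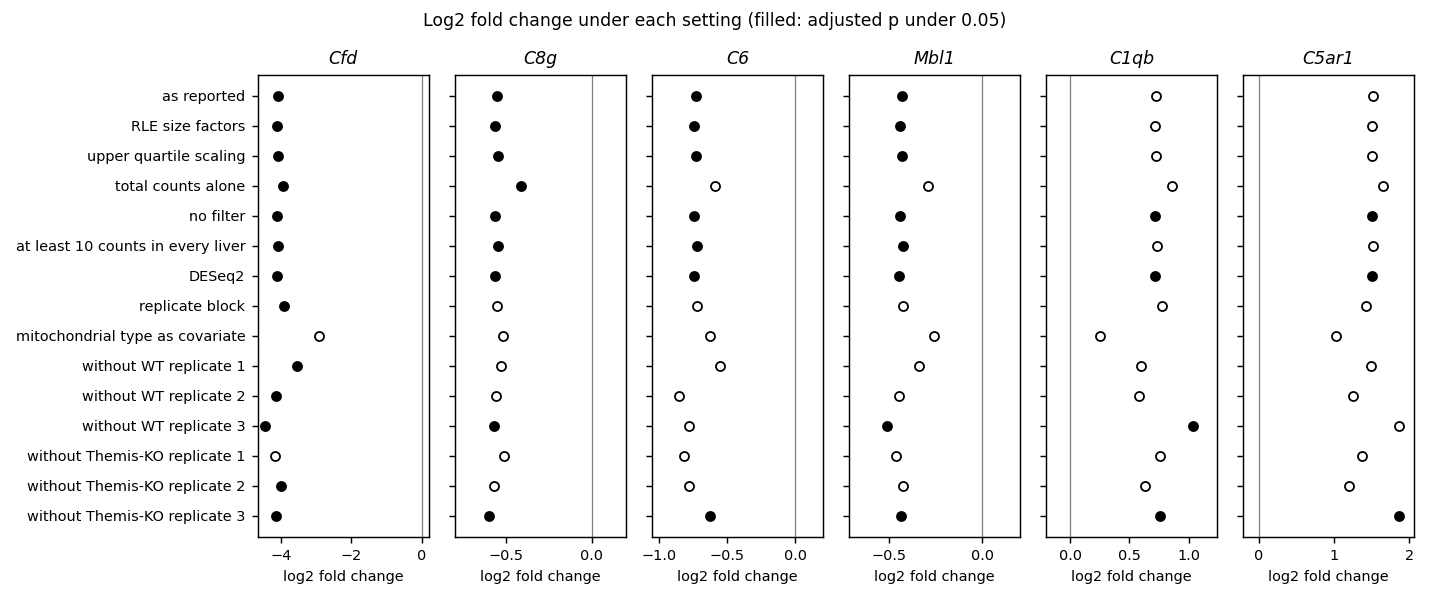
Log2 fold change (x axis) of *Cfd*, *C8g*, *C6*, *Mbl1*, *C1qb* and *C5ar1* in each fit (y axis), where filled points mark an adjusted p under 0.05. All points of a gene lie on the same side of 0, while the calls change with the livers left out and with the covariates, and *Cfd* runs from −4.46 to −2.91.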

How the data were processed

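Liver RNA of 3 WT and 3 *Themis*-KO mice was compared. Per the labels and the methods, the authors trimmed reads with cutadapt 2.3, mapped them to GRCm38 with STAR 2.7.8a and deposited RSEM 1.3.3 estimated counts per gene, not normalized and in whole numbers. RSEM divides reads among similar genes. Coordinates and exon lengths are from GENCODE vM21. The 35 members, the other lists and their classes were chosen with earlier results of these data known. Named are all members, *Themis*, called genes of the other complement genes, and a few genes of the marker and inducer lists. Further names were added with their values known, and some items the rule names are not reported here.

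The test was edgeR 4.0.16 under R 4.3.3 (filterByExpr, TMM, glmQLFit and glmQLFTest, no covariates). Of 25403 genes, 14496 were tested, with Benjamini-Hochberg adjustment over all of them and a threshold of 0.05. Standard errors were derived from the F statistic. Nothing says that livers of a group came from separate cages or litters, so p-values measure only the spread between these samples. No pair of libraries agreed within sampling noise (lowest chi-square per degree of freedom 9.83, between *Themis*-KO replicates 1 and 2). *Themis*-KO replicate 3 was at 41.3 and 42.3 from these. From WT replicates 1, 2 and 3 it was at 75.6, 41.2 and 36.1. Alternatives were other scalings, filters and thresholds, DESeq2 1.42.0, the replicate block and each liver left out. The mitochondrial type as a covariate and the adipocyte list were added after seeing the data. The fits were tested on simulated counts. Figures were drawn with matplotlib 3.10.9.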

Additional observations from a re-analysis of the deposited data

How the results depend on the processing

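The number of complement members called lower, 4, was 2 with scaling by total counts alone, 10 with no filter, 12 with DESeq2, 12 at an adjusted p under 0.1, 1 with an added 2-fold cutoff, and 0 with the mitochondrial type (6 at an unadjusted p under 0.05), a covariate chosen after seeing the data. The number called higher, 0, was 5 with no filter, with DESeq2 and at an adjusted p under 0.1. Calls over all genes are not given at an adjusted p under 0.1 or with the 2-fold cutoff. The counts at those thresholds, here and below, thus have no share to be set against. When livers were left out in turn, members called lower ran from 0 without *Themis*-KO replicate 1 (12 at an unadjusted p under 0.05) to 9 without *Themis*-KO replicate 3, and members called higher from 0 to 5. The replicate block left 1 member lower, *Cfd*, and 0 higher (11 and 5 at an unadjusted p under 0.05). The calls over all genes tested moved as well. They were 600 lower and 721 higher of 14496 in the main fit, and 967 and 1212 of 25403 with no filter. DESeq2 called 1072 and 1207 of 25403, total counts alone 387 and 1449, and the block 45 and 17. With the mitochondrial type they were 3 and 0, without *Themis*-KO replicate 1 they were 12 and 8, and without *Themis*-KO replicate 3 they were 2039 and 2228. Of the other complement genes, the 2 called higher and 4 called lower were 0 and 2 with the block, 0 and 0 with the mitochondrial type, and 1 and 2 with the 2-fold cutoff, and ran from 0 to 5 each with livers left out. The authors describe the livers as 3 pairs, without saying whether the numbers mark the pairs. After subtraction of group means, livers with the same number correlated at 0.010, −0.31 and −0.18, and those with different numbers at −0.17 to 0.32. With 3 livers per group these values cannot decide whether the numbers pair the livers. The median log2 fold change of hepatocyte-made members, −0.26, was −0.12 with total counts alone and −0.14 with the mitochondrial type, and that of macrophage-made members, 0.69, was 0.27 with the mitochondrial type. With livers left out these medians ran from −0.34 to −0.20 and from 0.56 to 0.96.

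Signs turned only in genes that were not called. With total counts alone, *C1s1* was at 0.090, *C4b* at 0.092, *Cd55* at 0.11, *Cd59a* at 0.048 and *Cr1l* at 0.012. With the mitochondrial type, *C1s1* was at 0.024, *C4b* at 0.056 and *Cfp* at −0.066. With livers left out, *C1s1* ran from −0.16 to 0.012, *Colec10* from −0.066 to 0.20, *C4b* from −0.14 to 0.070, *C3* from −0.090 to 0.18, *C7* from −0.095 to 0.86 and *Cd55* from −0.085 to 0.065. RLE and upper quartile scaling and a minimum of 10 counts in every liver gave the same 4 calls, and *C7* could not be fitted under that minimum. The cause of these changes was not tested. Depth limits *C7* most, at 8 to 21 counts per library.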

Other observations

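Markers of other cell types were also scored by their counts and sums. Of 9 stellate cell genes, 5 (55.6%, against 4.97% of all genes tested) were called higher, *Col1a1*, *Col1a2*, *Col3a1*, *Pdgfrb* and *Dcn*. Their list had a median log2 fold change of 0.80 and a summed CPM of 387 to 436 in WT and 581 to 646 in *Themis*-KO livers. Of 7 cholangiocyte markers tested, *Spp1* was called higher (14.3%), all 7 were positive and the summed CPM was 154 to 193 in WT and 387 to 616 in *Themis*-KO livers. Most of this sum was *Spp1*, at 137 to 180 CPM in WT and 366 to 571 CPM in *Themis*-KO livers. The 8 endothelial markers, of which *Lyve1* was called higher (12.5%), had a median of 0.081. The 5 T cell markers tested had a median of 0.0055, with *Cd4* called lower (20%, against 4.14% of all genes tested). The 5 B cell markers had a median of −0.31, with 0 called by edgeR and 0 at an unadjusted p under 0.05.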
